A study of Mus musculus with 10 samples.

Results

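In 1270 of 14300 coding transcripts of mouse embryonic stem (ES) cells, the 5′ untranslated region (5′ UTR) carried many ribosome footprints without any drug. They were chosen by 2 thresholds on the mean of the 2 control libraries, namely at least 20 normalised footprints on the 5′ UTR and at least 0.2 times as many as on the annotated open reading frame (ORF). The members make up 8.88% of the coding transcripts and belong to 1269 genes. Another 2077 transcripts had at least 20 control footprints on the 5′ UTR but a lower ratio, and they serve as the comparison set throughout. Because control values chose the members, their control levels, and any change against control, are given as description only, and tests are restricted to differences between the drugs.

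CGR8 cells, a mouse ES cell line, were profiled with 2 libraries per condition. Control cells received no drug, and the other cells received the pateamine A analog DMDA-PatA (1 µM for 10 min), harringtonine (2 µg/ml for 10 min) or puromycin (0.2 mg/ml for 20 min), so that puromycin differs from the others in time as well as in drug. Per the study's methods, every sample held the same amount of DMSO, and cycloheximide was added only once the cells were cooled. A further 2 libraries of untreated cells gave whole transcriptome reads. The study's methods call the replicates biological, and no label says whether they came from separate cultures, so the p-values measure the spread between these libraries. On the 5′ UTRs and ORFs of coding transcripts, the depth was 9.40 and 11.0 M reads in the control libraries, 2.70 M and 2.45 M in the harringtonine libraries, 0.989 M and 1.21 M in the DMDA-PatA libraries, and 1.08 M and 1.86 M in the puromycin libraries. All 8 ES cell markers had control footprints on the ORF, from 211 in Tdgf1 to 12298 in Dppa5a. Of the endoderm and mesoderm markers, Sox17, Gata4, Gata6 and Foxa2 had at most 53.1, while T had 612 and 660 and Kdr 137 and 105. Of the neural and fibroblast markers, Pax6 had 71.9 and 69.8, Thy1 131 and 128, Nes 1816 and 1740, Col1a2 3326 and 2368, and Col1a1 16909 and 12975.

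A ribosome that initiates in the usual way binds near the cap, scans the 5′ UTR and begins at a start codon. When a start codon lies upstream of the main ORF, a short upstream ORF can be translated, and in several stress response genes such upstream ORFs control how many ribosomes reach the main ORF. DMDA-PatA targets eIF4A, an RNA helicase of the initiation complex. Harringtonine blocks ribosomes that have just initiated, and puromycin releases the growing peptide chain.

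Short upstream ORFs of 8 members, read from the GENCODE M21 transcripts, are shown because each lies whole inside a footprint-rich 5′ UTR and is only 1 to 4 codons long. Capitals mark the upstream ORF from its ATG to its stop codon, lower case the 9 bases before and the 3 bases after, and each window lies in a single exon of the 5′ UTR (GRCm38).
Atf4, chr15:80255573-80255596, plus strand: gcggccaccATGGCGTATTAGagg
Atf5, chr7:44816523-44816546, minus strand: gcccgcgcaATGGCTCTGTAGccg
Rab10, chr12:3309867-3309884, minus strand: cctggggttATGTAGcag
Sap30, chr8:57487789-57487806, minus strand: gaagtctccATGTGAcag
Trim71, chr9:114563940-114563957, minus strand: acaaaggaaATGTGAtcc
Lin28b, chr10:45470131-45470154, minus strand: aaaatcaagATGTTAGACTGAtgc
Wnk1, chr6:120038290-120038316, minus strand: catctagtgATGGGCGCCCTCTGAgac
Col5a1, chr2:27886697-27886720, plus strand: gagcttcctATGACTCCCTGAagt
In Rab10, Sap30 and Trim71 the start codon was followed directly by a stop codon. Such a pair of codons was found in 155 of the 996 members whose listed ORF matched the reference exactly (15.6%), in 6.27% of the comparison set and in 6.18% of all matched 5′ UTRs. Among 5′ UTRs of 200 to 400 nt the shares were 6.61%, 6.47% and 6.42%, so within this length range the shares lay close together. Atf4, Atf5 and Wnk1 hold a purine 3 bases before the ATG and a G right after it, written ANNATGG or GNNATGG, which 38.9% of members, 22.8% of the comparison set and 18.9% of all matched 5′ UTRs contained. At 200 to 400 nt these shares were 29.8%, 23.0% and 25.3%. These letters were searched on the transcript strand only, and a match does not show that the codon is used.

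Members had longer 5′ UTRs than the comparison set, with medians of 399.5 and 244 nt, and shorter ORFs, with medians of 1131 and 1569 nt. The rule compares footprint counts without dividing by length, so a longer 5′ UTR or a shorter ORF by itself favours membership. These lengths, and the sequence shares over all lengths here and above, are therefore description only. Of the 996 matched members, 861 (86.4%) held at least 1 upstream ATG and 820 (82.3%) a complete upstream ORF, against 62.0% and 56.0% of the comparison set. For 5′ UTRs of 200 to 400 nt the shares with an ATG were 81.0% in members, 66.0% in the comparison set and 71.7% in all matched transcripts. An ORF that begins upstream and runs out of frame into the main ORF was present in 22.0% of members, 14.6% of the comparison set and 17.0% of all matched transcripts, and at 200 to 400 nt in 21.2%, 14.5% and 20.0%. The other 135 matched members had no upstream ATG at all, Peg10, Igfbp5, Rpl41 and Itga3 among them.

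The control footprints of the members ranged from 20.0 to 4810 per 5′ UTR with a median of 77.9, and the 5′ UTR to ORF ratio had a median of 0.463 over the 1253 members with control footprints on the ORF. In 267 members the 5′ UTR held more footprints than the ORF. Near the footprint threshold, Mmgt2 (20.04) and Tfb2m (20.13) were just inside, and Wscd1 and March9 (19.99 each) just outside. For the ratio, Ggta1 (0.2003) and Polr1d (0.2006) were just inside, and Mta2 (0.19998) just outside. When control replicate 1 alone chose the transcripts, 1087 of 1312 also met the rule in replicate 2, and their median ratio was 0.443 in the first library and 0.450 in the second. Counted per nucleotide, control footprint density was higher on the 5′ UTR than on the ORF in 846 members, with a median density ratio of 1.47, against 301 transcripts and 0.373 in the comparison set. Transcriptome read density on the 5′ UTR had a median of 0.640 times that of the ORF in members. The comparison set had 0.366 times, so members were also higher in this measure.

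The annotation sets limits for some members. Of 1244 members that could be placed on the reference, 127 (10.2%) had a 5′ UTR sharing bases with an annotated coding sequence on the same strand, against 5.91% of the comparison set, and in 18 it was the coding sequence of another gene. In Vegfa all 459 nt of the listed 5′ UTR were annotated as coding in another transcript. A small RNA gene lay in the 5′ UTR of 8 members, Ddx39b and Col3a1 included. In 17 members no control footprint was listed on the ORF, and 14 of them, including Ptma, Eif1, Rps6 and Rpl5, had no transcriptome read there either. These 17 members have no defined control ratio and met the ratio threshold because their ORF is listed at 0. Reads with several matches in the genome were left out by the authors, and whether this bears on them was not tested.

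The 8 members with the most control footprints on the 5′ UTR were Peg10, Ptma, Scd2, Igfbp5, Wnk1, Col5a1, Ddx39b and Itga3. Peg10, an imprinted gene of retrotransposon origin, led with 5060 and 4560 control footprints on its 370 nt 5′ UTR. It held 1842 and 3261 after DMDA-PatA, 8519 and 5547 after harringtonine, and 5573 and 4335 after puromycin. The DMDA-PatA libraries were the lowest of the 4 conditions and did not overlap with any other. Its level passed the test between DMDA-PatA and harringtonine (log2 difference −1.46 ± 0.46, edgeR adjusted p = 0.00418). Between DMDA-PatA and puromycin it did not (−0.957 ± 0.455, edgeR adjusted p = 0.0592). Scd2, a fatty acid desaturase, had 2574 and 2677 control footprints, 532 and 814 under DMDA-PatA, 2380 and 1184 under harringtonine, and 2742 and 2371 under puromycin. The puromycin libraries overlapped with control, and DMDA-PatA left 25.6%. Wnk1, a kinase that regulates ion transport, had 2023 and 2187 control footprints and 3441 and 2927 with puromycin, the only condition above control, and its ratio reached 17.2 there. Col5a1, a fibrillar collagen chain, had 2009 and 1575 control footprints and 217 and 366 with DMDA-PatA.

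Itga3, an integrin subunit, had 1443 and 1721 control footprints on the 5′ UTR, 85.2 and 116 under DMDA-PatA, 410 and 293 under harringtonine, and 1079 and 720 under puromycin. All 3 drugs were separate from each other. The log2 difference in level between DMDA-PatA and puromycin was −3.16 ± 0.48 (SE; edgeR quasi-likelihood test, Benjamini-Hochberg adjusted p = 9.13e-10), and that of the 5′ UTR against its own ORF was −1.93 ± 0.33 (edgeR adjusted p = 5.33e-05). Both calls held in every alternative listed in the closing section. Of the Itga3 5′ UTR, 30 nt are coding in another transcript. Igfbp5, a binding protein for insulin-like growth factors, had 2524 and 2315 control footprints, 403 and 666 under DMDA-PatA, 570 and 328 under harringtonine, and 2000 and 1533 under puromycin. Here the harringtonine and DMDA-PatA libraries overlapped, and the log2 difference in level between harringtonine and puromycin was −1.98 ± 0.46 (edgeR adjusted p = 0.00048).

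Rpl41, Mier2, Josd1, Rps3a1 and Smarce1 were among the 6 members with the highest control ratios, from 274 down to 24.5. Each rested on few ORF reads, from 1 read in Mier2 to 21 reads in Smarce1 over both control libraries. Transcriptome reads on the ORF were also few in Rpl41, Josd1, Rps3a1 and Smarce1. Their transcriptome read density on the 5′ UTR was 24.6, 14.9, 24.8 and 21.8 times that of the ORF. The member median was 0.640. Mier2 differed, with a mean of 487 normalised transcriptome reads on the ORF and a density ratio of 1.16. Whether the high footprint ratios follow from this ORF coverage was not tested. Rpl41, which encodes a very short ribosomal protein, had 648 and 495 control footprints on the 5′ UTR, 87.8 and 131 under DMDA-PatA, 1046 and 617 under harringtonine, and 490 and 545 under puromycin. The log2 difference in 5′ UTR level of DMDA-PatA was −2.92 ± 0.47 from harringtonine and −2.24 ± 0.46 from puromycin (edgeR adjusted p = 1.15e-08 and 6.64e-06). Mier2 shared 440 of its 556 nt with coding sequence, and its 5′ UTR had 108 and 131 control footprints and at most 4.87 in any drug library. Rps3a1, another ribosomal protein gene, had more with each drug, with 37.7 and 46.2 control footprints and 155 and 276 with DMDA-PatA.

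**Figure D1:**
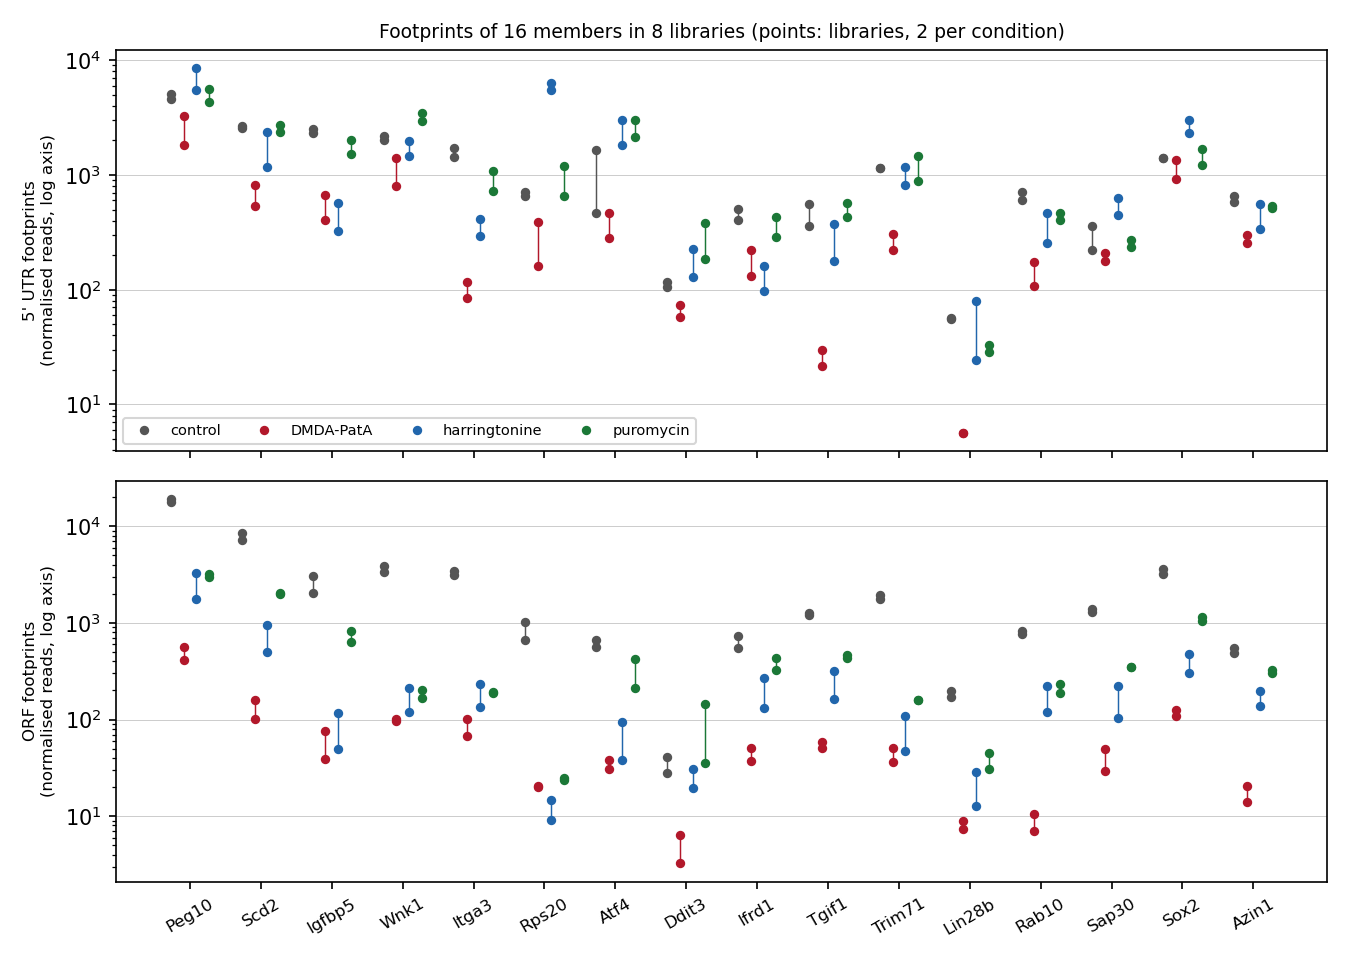
Normalised footprints on the 5′ UTR (upper panel) and ORF (lower panel) of 16 members on log axes, with each point 1 library and a line joining the 2 libraries of a condition. On the 5′ UTR, Tgif1 kept 5.62% and Itga3 6.36% of control with DMDA-PatA, while Rps20 stood at 5507 and 6368 with harringtonine.

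Each drug was then set against control for 5′ UTR and ORF of the same transcripts. The median member kept 30.4% of its control 5′ UTR footprints after DMDA-PatA, 87.3% after harringtonine and 83.9% after puromycin, while the ORF kept 3.58%, 10.4% and 22.1%. The 2 libraries gave medians of 24.4% and 36.2% for the 5′ UTR with DMDA-PatA, 105% and 68.9% with harringtonine, and 88.5% and 76.6% with puromycin. In the comparison set the 5′ UTR kept 65.7%, 173% and 105%. Members were chosen on these control values, so nothing is read from this difference. Transcriptome libraries of drug-treated cells were not analysed here, so fewer ribosomes on an mRNA and less of that mRNA cannot be told apart.

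The median 5′ UTR to ORF ratio of the members was 0.443 and 0.468 in control. After DMDA-PatA it was 3.89 and 4.29, after harringtonine 3.63 and 4.29, and after puromycin 2.07 and 1.69. More footprints lay on the 5′ UTR than on the ORF in 20.7% and 21.02% of members in control. This share was 78.9% and 72.8% after puromycin, 88.6% and 91.2% after DMDA-PatA, and 91.4% and 92.3% after harringtonine. The rise was therefore not particular to DMDA-PatA. In the comparison set the share was 0% in each control library. It was 19.2% and 14.2% there after puromycin, 52.3% and 58.0% after DMDA-PatA, and 47.1% and 55.0% after harringtonine. Members were chosen on the control ratio, so nothing is read from the difference between the sets.

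**Figure D2:**
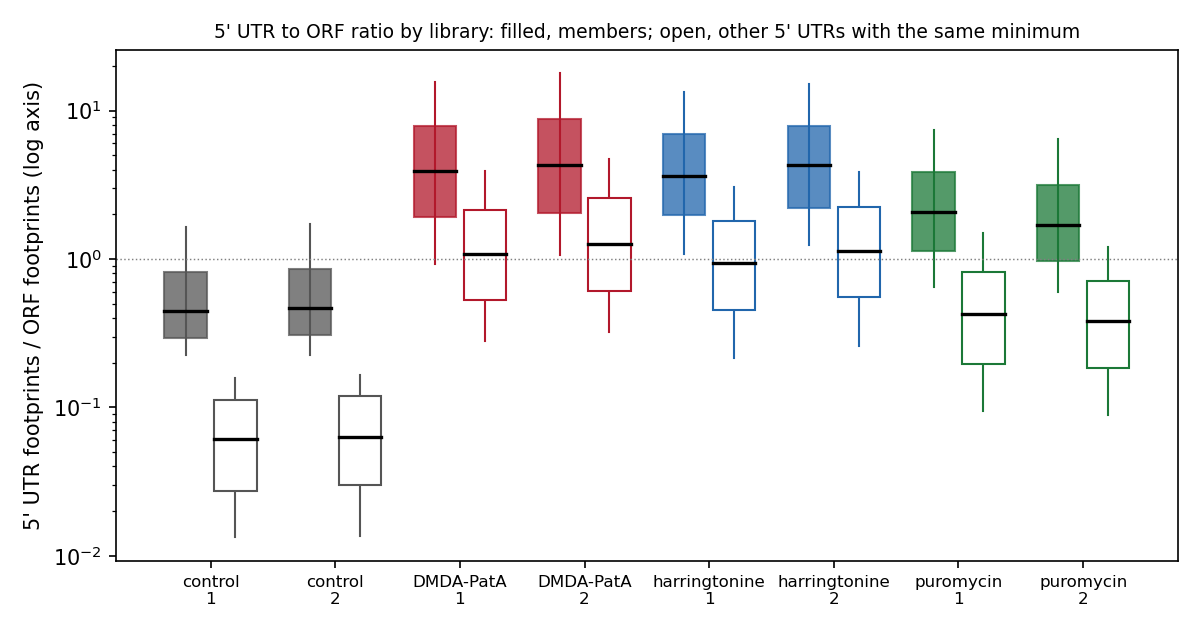
Ratio of 5′ UTR to ORF footprints per library on a log axis, for the 1270 members (filled) and the 2077 transcripts of the comparison set (open), with transcripts without ORF footprints in that library left out. Boxes span the 25th to 75th percentile with the median as a line, and whiskers the 10th to 90th percentile. The member medians lie between 0.443 and 0.468 in control and between 1.69 and 4.29 with the drugs.

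**Figure D3:**
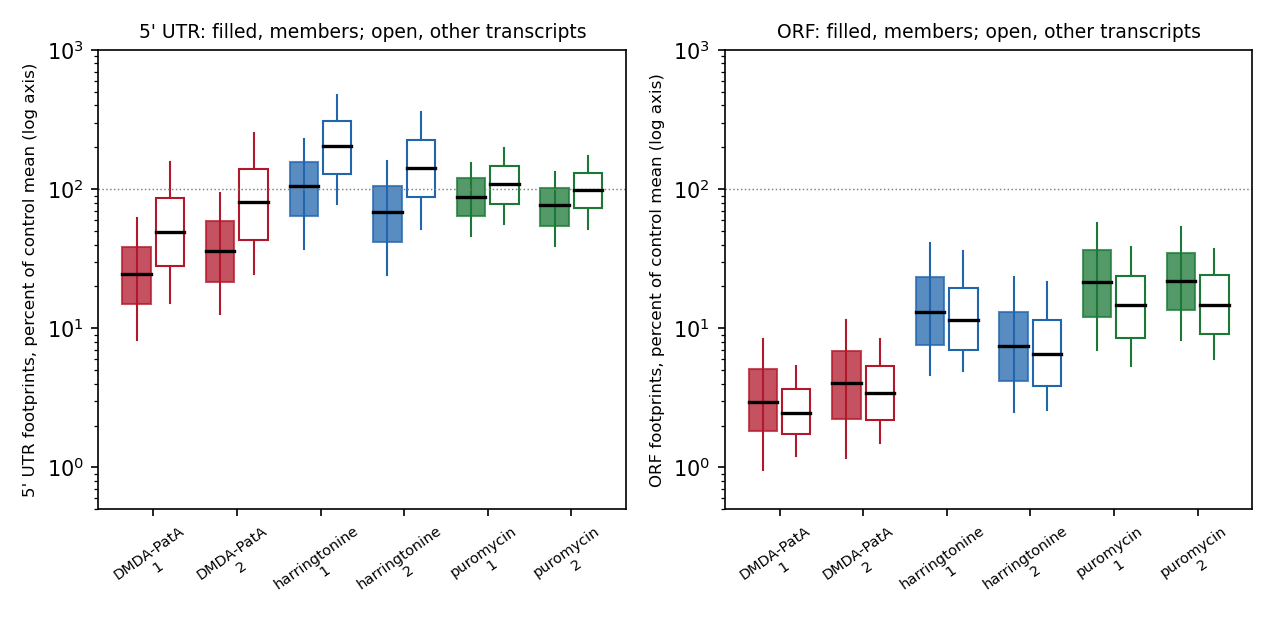
Footprints on the 5′ UTR (left) and ORF (right) in each drug library as percent of the control mean on a log axis, for members (filled) and the comparison set (open). Boxes and whiskers are the percentiles 10, 25, 50, 75 and 90. The member medians on the 5′ UTR are 24.4% and 36.2% with DMDA-PatA and between 68.9% and 105% with the other drugs.

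In the comparisons between drugs, the control libraries enter through the shared estimate of the spread and through the filter on low counts. Reads in any library counted for that filter, so control reads also bear on which 5′ UTRs were tested. Vsig10, for example, had 157 control reads on the 5′ UTR and 3, 0 and 7 with DMDA-PatA, harringtonine and puromycin. The 5′ UTR level was lower with DMDA-PatA than with harringtonine in 835 of 1270 members (65.7%), where 54.8% of all tested 5′ UTRs were, and higher in 14, where 4.34% were (edgeR adjusted p under 0.05 for every call). Compared with puromycin it was lower in 799 members (62.9%), where 30% of all tested 5′ UTRs were, and higher in 17, where 12.4% were. The median difference of the members from puromycin was −1.45 on the log2 scale, against −0.57 over all tested 5′ UTRs. Harringtonine and puromycin gave a median difference of 0.05 in members and 0.77 over all tested 5′ UTRs, with 93 members higher (background 24.8%) and 84 lower (background 2.4%). In the comparison set, 63.7% were lower with DMDA-PatA than with harringtonine and 2.26% higher, so the members' 65.7% lay close to it. Compared with puromycin, 35.5% of that set were lower with DMDA-PatA and 9.29% higher. Harringtonine was above puromycin in 27.0% of the set and below it in 2.26%. These levels rest on the authors' spike-in scaling. With TMM scaling the median over all tested 5′ UTRs shifted by 1.33, 1.45 and 0.12 in these 3 contrasts, and DMDA-PatA was then lower than harringtonine in 19.3% and higher in 15.1% of members, and lower than puromycin in 16.9% and higher in 19.6%. Without DMDA-PatA replicate 1 the spike-in level was lower than with harringtonine in 40.4% and lower than with puromycin in 41.7% of members. Leaving out any harringtonine, puromycin or control library moved the counts between harringtonine and puromycin, to 1.496% to 13.2% higher and 2.13% to 14.3% lower.

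The ratio of 5′ UTR to its own ORF does not depend on the scaling. It was higher with DMDA-PatA than with harringtonine in 186 of 1254 tested members, where 21.9% of all tested transcripts were, and lower in 130, where 11% were. The median member difference was 0.02 on the log2 scale. Against puromycin the ratio was higher with DMDA-PatA in 510 members (40.7%, background 54.1%) and lower in 62 (4.94%, background 2.88%). Harringtonine exceeded puromycin in 475 members (37.9%, background 49.4%) and was lower in 24 (1.91%, background 1.12%). In the same order, the ratio was higher in 24.4%, 60.9% and 59.1% of the comparison set. It was lower in 14.2%, 4.04% and 1.49% of that set. Of the member calls, 315 of 316, 568 of 572 and 499 of 499 had libraries that did not overlap between the 2 drugs. Overlap was counted for members only and on the same libraries as the calls, so it adds no separate support. Without DMDA-PatA replicate 2 the ratio was higher than with harringtonine in 7.81%, and without replicate 1 it was lower in 3.59% and lower than with puromycin in 2.07%. Without puromycin replicate 2 the share higher with harringtonine was 19.5%.

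The largest ratio differences often came from an ORF with almost no reads, and for these the reads are given in place of a fold. Zcchc18 and Asb7, both higher with DMDA-PatA, had 38 and 81 reads on the 5′ UTR and 0 on the ORF over both DMDA-PatA libraries. Zbtb32, a transcription factor gene, had 26 reads on the 5′ UTR and 1 on the ORF there, and 211 of its 301 nt are coding in another transcript. Aida had 2 reads on the 5′ UTR with DMDA-PatA and 59 with harringtonine. Usp27x, Dsel, Supt20 and Chst2, lower with DMDA-PatA or harringtonine than with puromycin, had 0, 1, 1 and 1 ORF reads in the puromycin libraries. Vsig10 had no 5′ UTR read with harringtonine and 7 with puromycin. Ctdsp2 had 520 reads on the 5′ UTR and 0 on the ORF with harringtonine, while Snrpd2 had 1293 and 1.

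Rps20 and Ass1 were, beside Aida, the members named for the lowest ratio with DMDA-PatA against harringtonine. Rps20, a protein of the small ribosomal subunit, had 707 and 658 control footprints on the 5′ UTR, 162 and 391 under DMDA-PatA, 5507 and 6368 under harringtonine, and 660 and 1190 under puromycin. Harringtonine alone stood far above the other 3 conditions. The log2 difference of the 5′ UTR against its own ORF was −5.30 ± 0.52 between DMDA-PatA and harringtonine (edgeR adjusted p = 2.43e-07). Ass1, the urea cycle enzyme argininosuccinate synthase, had 242 and 206 footprints with harringtonine and at most 48.3 in the other libraries. Fbl, the nucleolar RNA methyltransferase fibrillarin, had 141 and 100 footprints with harringtonine, 17.0 and 27.6 with DMDA-PatA, and 16.5 and 17.4 with puromycin. Its ratio was higher with harringtonine than with puromycin by 7.14 ± 0.69 on the log2 scale (edgeR adjusted p = 3.35e-07). This rests on few reads, with 282 on the 5′ UTR and 4 on the ORF with harringtonine, and 22 and 47 with puromycin. Hpcal1, which encodes a calcium sensor, had 185 reads on the 5′ UTR and 3 on the ORF with DMDA-PatA, and 39 and 51 with puromycin.

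Of 22 listed genes known for upstream ORFs or a role in the stress response, 10 were members, against 8.88% of coding transcripts. At least 20 control footprints on the 5′ UTR were reached by 16 of the 22, and 37.9% of all such coding transcripts were members. The 10 members were Atf4, Atf5, Ddit3, Ppp1r15a, Ifrd1, Eif1, Eif5, Tgif1, Vegfa and Slc35a4. Eif1 met the ratio threshold because its ORF is listed at 0. The listed 5′ UTRs of Vegfa and Ddit3 share bases with coding sequence, and Tgif1 is among the study's own upstream ORF genes. With DMDA-PatA the 5′ UTR level was lower than with harringtonine in 7 of these 10 members and lower than with puromycin in 8, and higher in none. Lower levels were found in 65.7% and 62.9% of all members and in 54.8% and 30% of all tested 5′ UTRs. With TMM scaling these counts were 4 lower and 1 higher against harringtonine, and 3 lower and 1 higher against puromycin. Atf4, the transcription factor of the integrated stress response, had 469 and 1653 control footprints on its 594 nt 5′ UTR, a wide spread. It had 281 and 463 under DMDA-PatA, 3010 and 1825 under harringtonine, and 2151 and 3030 under puromycin. The log2 difference in level of DMDA-PatA was −2.70 ± 0.47 from harringtonine and −2.80 ± 0.47 from puromycin (edgeR adjusted p = 1.8e-07 and 4.45e-08), and both calls held with TMM scaling. Besides the 3 codon upstream ORF shown above, Atf4 holds another upstream ORF that overlaps the main ORF out of frame.

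Ifrd1, a transcriptional coregulator, had 407 and 509 control footprints on the 5′ UTR, 133 and 223 under DMDA-PatA, 160 and 97.3 under harringtonine, and 287 and 433 under puromycin. DMDA-PatA and harringtonine overlapped. Its ORF kept 6.85% of control footprints with DMDA-PatA and 31.0% with harringtonine, and the ratio was higher with DMDA-PatA by 2.57 ± 0.44 on the log2 scale (edgeR adjusted p = 0.000148). Ddit3, which encodes the stress transcription factor CHOP, had more footprints with puromycin (186 and 381) than in control (117 and 105), and 102 of its 186 nt are annotated as coding. Tgif1, a homeobox corepressor, kept 5.62%, with 560 and 356 control footprints and 21.5 and 30.0 with DMDA-PatA, and Vegfa, the endothelial growth factor, kept 4.68% on 9 reads. The log2 difference of Tgif1 in 5′ UTR level between DMDA-PatA and harringtonine was −3.43 ± 0.49 (edgeR adjusted p = 1.99e-10), and the call held with TMM scaling. Eif1, the start codon selection factor, had 68.0 and 56.7 footprints with harringtonine and 8.27 and 7.46 with puromycin.

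The study's own upstream ORF genes contributed 7 members of 12, namely Col3a1, Lin28b, Plpp2, Rab10, Sap30, Tgif1 and Trim71. They were picked from these libraries, so their count is not independent evidence. Rab10, a small GTPase of membrane traffic whose only upstream ORF is the ATG and stop codon shown above, had 608 and 714 control footprints on the 5′ UTR, 107 and 175 under DMDA-PatA, 470 and 255 under harringtonine, and 403 and 466 under puromycin. Its ratio was higher with DMDA-PatA than with harringtonine by 2.89 ± 0.48 and than with puromycin by 2.93 ± 0.48 on the log2 scale (edgeR adjusted p = 0.0001 and 3.77e-05). Sap30, a subunit of a histone deacetylase complex with the same kind of minimal upstream ORF, had 356 and 221 control footprints and 635 and 451 with harringtonine. Before scaling, its 5′ UTR had 539 reads over both DMDA-PatA libraries and 546 over both control libraries. Each read is worth 0.631 and 0.812 normalised footprints in the DMDA-PatA libraries and 1.18 and 0.906 in control. The Sap30 ratio did not pass the test between DMDA-PatA and harringtonine (0.53 ± 0.45, edgeR adjusted p = 0.393). Klf3, Nanog, Ctcf, Dicer1 and Rrp9 had over 20 control footprints but ratios from 0.018 to 0.157 and are not members.

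Among 16 listed microRNA pathway genes, 8 had at least 20 control footprints on the 5′ UTR. Lin28b, Trim71 and Ago3 were members (18.75%, against 8.88% of coding transcripts). In all 3 the 5′ UTR level was lower with DMDA-PatA than with harringtonine and than with puromycin. The shares were 65.7% and 62.9% of all members and 54.8% and 30% of all tested 5′ UTRs. With TMM scaling the level was lower in only 1 of the 3 against either drug. Trim71, a let-7 target and RNA-binding ubiquitin ligase, had 1146 and 1147 control footprints on its 1252 nt 5′ UTR, 223 and 308 under DMDA-PatA, 1180 and 818 under harringtonine, and 1474 and 890 under puromycin. The DMDA-PatA libraries did not overlap with any other condition. Lin28b, which blocks let-7 maturation, had 56.6 and 55.3 control footprints and 5.68 in each DMDA-PatA library. Those are 16 reads in all, and its ratio call against harringtonine (edgeR adjusted p = 0.029) was lost without either DMDA-PatA library or without harringtonine replicate 1.

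Of 21 listed pluripotency genes, 11 had at least 20 control footprints on the 5′ UTR. Sox2 and Tbx3 were members (9.52%, near the 8.88% of coding transcripts). Sox2 had 1415 and 1412 control footprints on the 5′ UTR, 931 and 1347 under DMDA-PatA, 3028 and 2299 under harringtonine, and 1690 and 1220 under puromycin. Harringtonine was above all other libraries. The 5′ UTR against its own ORF was higher than with puromycin by 2.86 ± 0.32 with DMDA-PatA and by 2.41 ± 0.31 with harringtonine on the log2 scale (edgeR adjusted p = 3.13e-07 and 6.91e-06). Of 11 polyamine genes, 2 had at least 20 control footprints on the 5′ UTR. A single one, Azin1, the antizyme inhibitor, was a member (9.09%, also near 8.88%). Azin1 kept 45.1% of its 5′ UTR and 3.27% of its ORF footprints with DMDA-PatA, and its ratio was higher than with harringtonine by 2.63 ± 0.44 on the log2 scale (edgeR adjusted p = 0.00013).

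Of 33 listed signalling genes, 21 had at least 20 control footprints on the 5′ UTR, and 10 were members (30.3%, against 8.88% of coding transcripts). Among these 10 were the receptors Fzd7, Bmpr2, Fgfr1 and Fgfr2, the ligand Fgf4, the adaptor Grb2 and the kinase Gsk3b. Compared with puromycin, the 5′ UTR level was lower with DMDA-PatA in 7, where 62.9% of all members and 30% of all tested 5′ UTRs were, and higher in 1, Fgf4. With TMM scaling it was lower in 4 and higher in 2. Compared with harringtonine, the level was lower in 5 of 10, where 65.7% of all members and 54.8% of all tested 5′ UTRs were. None was higher. With TMM scaling 2 were lower and 2 higher. Grb2, which couples receptor tyrosine kinases to Ras, had 202 and 237 control footprints, 15.8 and 21.9 under DMDA-PatA, 512 and 342 under harringtonine, and 331 and 177 under puromycin. The log2 difference in level between DMDA-PatA and harringtonine was −4.50 ± 0.51 (edgeR adjusted p = 9.24e-16). Bmpr2, a receptor for bone morphogenetic proteins, was low with DMDA-PatA and harringtonine, at 5.68 and 2.44 and at 15.2 and 6.30, against 57.9 and 54.7 with puromycin. Fgf4, the growth factor that primes ES cells for differentiation, had 96.7 and 92.5 footprints in control, 141 and 284 under DMDA-PatA, 387 and 391 under harringtonine, and 82.7 and 117 under puromycin. Its excess of DMDA-PatA over puromycin in level (1.08 ± 0.45 on the log2 scale, edgeR adjusted p = 0.0293) was lost without either control library, without DMDA-PatA replicate 2, and without either puromycin library. Socs3, the feedback inhibitor of LIF signalling, also had more 5′ UTR footprints in every drug library, from 142 to 338, than in control, at 121 and 104.

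By family, 15 of 78 listed ribosomal protein transcripts were members, 6 of them without control footprints on the ORF. Collagen genes supplied 9 of 40 and zinc finger genes of the Zfp series 40 of 349, beside the 8.88% of all coding transcripts. Cyclins had 1 member of 16 and histones 1 of 58. In the Zfp members the level was lower with DMDA-PatA than with puromycin in 27 of 40, where 62.9% of all members and 30% of all tested 5′ UTRs were, and higher in none. With TMM scaling it was lower in 7 and higher in 4. Compared with harringtonine, the level was lower in 24 of 40, where 65.7% of all members and 54.8% of all tested 5′ UTRs were. None was higher. With TMM scaling 6 were lower and 1 higher. Col1a2, listed above as a fibroblast marker, is itself 1 of the 9 collagen members.

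Upstream ATG codons were then counted in the 996 matched members. For DMDA-PatA against puromycin, the median difference of 5′ UTR level was −1.08 on the log2 scale for the 135 members without an ATG, −1.10 for 195 with 1, −1.52 for 413 with 2 to 4, and −1.68 for 253 with 5 or more. Over the 4 pairings of single libraries the medians ran from −1.67 to −0.69 without an ATG and from −1.995 to −1.40 with 5 or more, so the ranges overlapped. The level was called lower in 49.6%, 50.8%, 66.3% and 74.7% of these classes. The 5′ UTR against its own ORF gave medians of 2.17, 1.48, 0.94 and 0.61 in the same order. Against harringtonine the level had no such order, with medians of −1.504, −1.33, −1.52 and −1.46, while the 5′ UTR against its own ORF gave 0.62, 0.35, −0.29 and −0.33.

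Length differed between these classes, with a median of 274 nt without an ATG and 679 nt with 5 or more. Within 5′ UTRs of 200 to 400 nt, the level medians against puromycin were −1.19, −1.08, −1.44 and −1.95 for 69, 95, 166 and 33 members. The comparison set had medians of −0.21, −0.80, −1.11 and −1.45 over all lengths, which is the same order. No test was made of these orders, and members of a class share the same libraries.

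**Figure D4:**
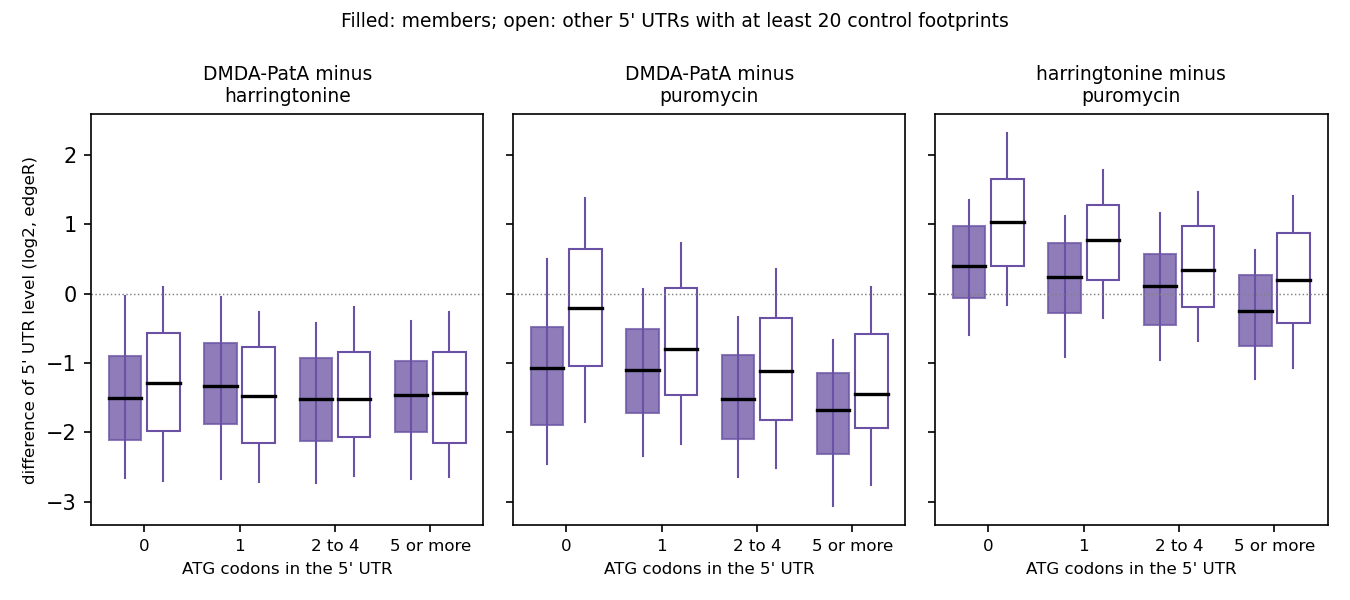
Difference of 5′ UTR level between drugs (log2, edgeR) by the number of ATG codons in the 5′ UTR, for members (filled) and the comparison set (open). Boxes span the 25th to 75th percentile with the median as a line, and whiskers the 10th to 90th percentile. For DMDA-PatA minus puromycin the member medians go from −1.08 without an ATG to −1.68 with 5 or more.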

How the data were processed

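Per the labels, footprints of CGR8 cells were sequenced in 8 ribosome profiling and 2 transcriptome libraries. The authors aligned reads to mm10, left out reads with several matches, counted them per region and deposited a signal, that is counts divided by spike-in size factors (inter-replicate size factors for the transcriptome). Picard 1.38 is named in the submitters' processing notes. Dividing each value by what 1 read is worth gave whole numbers, within 0.01, for 100% of values, so these recovered reads were tested, although the deposited unit is not counts.

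Transcripts, positions and upstream codons came from GENCODE M21. Level and ratio were fitted with edgeR 4.0.16 in R 4.3.3 (quasi-likelihood, keeping features that reached 10 reads in 2 or more libraries, Benjamini-Hochberg over 18480 features or 6535 transcripts). The ratio model has a term per library and a region-by-condition term. SE is the log2 difference over the root of F. Alternatives used limma 3.58.1 and DESeq2 1.42.0. Tables and figures used Python 3.11.15, pandas 2.3.3 and matplotlib 3.10.9.

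The named genes are the 8 highest by control 5′ UTR, the 6 highest by ratio, up to 3 extremes per side of each drug contrast, list members and threshold neighbours, of which some are not reported here. Members and lists were chosen with earlier results of these data known. In simulated counts for DMDA-PatA against harringtonine on 6535 transcripts, the ratio test recovered 34.5% of 200 changed ones, 12.1%, 37.3% and 53.7% for log2 changes of 1, 2 and 3, and called 3 of 6008 unchanged ones.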

Additional observations from a re-analysis of the deposited data

How the results depend on the processing

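The alternatives were TMM scaling, exchanged size factors of DMDA-PatA and harringtonine, DESeq2, limma, no filter on low counts, a replicate block, each library left out, and other thresholds for members. A ratio of at least 0.1 gave 1945 members and one of at least 0.4 gave 738. The median 5′ UTR to ORF ratio with DMDA-PatA was 4.50 for a minimum of 50 footprints and 5.24 for a ratio of at least 0.4, which gave 5.08 with harringtonine and 2.75 with puromycin.

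With TMM, the level was higher with DMDA-PatA than with harringtonine in 15.1% of members and lower in 19.3%, and than with puromycin higher in 19.6% and lower in 16.9%. Harringtonine exceeded puromycin in 20.9% and was lower in 12.9%. With exchanged size factors, DMDA-PatA was higher than harringtonine in 3.31% and than puromycin in 2.91%, and harringtonine lower than puromycin in 20.9%. For a minimum of 50 footprints, an alternative chosen after seeing the data, DMDA-PatA was higher than harringtonine in 0.584%.

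Same-numbered libraries had correlations of their deviations from −0.048 to 0.084. A shift common to all features of a library would not show in these, and the labels do not say what the numbers mark. Whether the libraries are paired is therefore unknown, and they were not treated as pairs. With the replicate block, the ratio was higher in 14.5%, 40.5% and 38.8% of members and lower in 10.3%, 4.47% and 1.99% (DMDA-PatA against harringtonine, DMDA-PatA against puromycin, harringtonine against puromycin). The level was higher in 1.02%, 1.18% and 4.72% and lower in 61.0%, 58.0% and 4.72%.

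With each library left out, in the same order, the share with a higher ratio ran from 7.81% to 14.5%, 29.8% to 42.0% and 19.5% to 38.3%, and with a lower ratio from 3.59% to 10.1%, 2.07% to 5.34% and 1.04% to 1.91%. The share with a higher level ran from 0.709% to 1.73%, 0.709% to 2.13% and 1.496% to 13.2%, and with a lower level from 40.4% to 75.6%, 41.7% to 69.5% and 2.13% to 14.3%. Without DMDA-PatA replicate 1 the level was lower than with harringtonine in 40.4% and than with puromycin in 41.7%, and without puromycin replicate 2 the ratio was higher with harringtonine in 19.5%. The ratio against harringtonine was higher in 9.65% and 7.81% without DMDA-PatA replicate 1 and replicate 2, and lower in 3.59% and 6.78%, and in 6.78% without harringtonine replicate 2. The median 5′ UTR to ORF ratio of single libraries ran from 3.89 to 4.29 with DMDA-PatA, 3.63 to 4.29 with harringtonine and 1.69 to 2.07 with puromycin.

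No ratio of a named gene reversed. TMM reversed these log2 level differences of DMDA-PatA from harringtonine: Wnk1 0.66, Col5a1 0.29, Josd1 0.20, Smarce1 0.17, Hpcal1 1.18, Azin1 0.70, Sox2 0.10, Tbx3 0.089, Dusp6 0.18, Gsk3b 0.62, Socs3 0.93, Rab10 0.0033, Col3a1 0.29 and Plpp2 1.11. From puromycin it reversed Ptma 0.15, Ddx39b 0.37, Smarce1 0.23, Zcchc18 0.13, Ctdsp2 0.26, Ifrd1 0.40, Azin1 0.56, Sox2 1.11, Tbx3 0.66, Dusp6 0.26, Gsk3b 0.093, Socs3 1.15 and Sap30 1.10. TMM assumes that most fitted features, 5′ UTRs and ORFs together, do not differ, which the spike-in does not.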

Other observations

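The 3′ UTRs of the members, which no comparison above uses, summed to 20017 and 17207 normalised footprints in the control libraries. The DMDA-PatA libraries gave 2285 and 3403, the harringtonine libraries 7240 and 4039, and the puromycin libraries 3846 and 4509, below control in every drug library.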
